A study of Mus musculus with 7 samples.

Results

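The expression of 9 genes for RNA-binding proteins of the germline was examined in fetal testes of wild-type and *Glis3* mutant mice: the Nanos family (*Nanos1*, *Nanos2* and *Nanos3*), *Dnd1*, the DAZ family genes *Dazl* and *Boll*, the Pumilio gene *Pum2*, and *Lin28a* and *Lin28b*. They were taken by symbol from a table of 24739 RefSeq genes, each of the 9 has 1 row in it, and all 9 passed the filter on low values described below. RNA-Seq libraries were made at E14.5 from 3 wild-type embryos (WT) and 4 embryos homozygous for the *Glis3* zf5 allele (Mutant), with 1 pair of testes from 1 embryo per library, on a C57BL/6 strain background. The zf5 allele is a deletion inside *Glis3* that disrupts DNA binding by GLIS3, a zinc finger transcription factor, and it is carried by every cell of the embryo. Ribosomal RNA was depleted from total RNA, priming was random, and no poly-A selection was made. Whole testes were sequenced, so fewer germ cells and less RNA per germ cell cannot be told apart in any value below.

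Between the onset of sex determination and birth, male germ cells stop dividing and delay meiosis, and much of this program is run by proteins that act on mRNA after transcription. NANOS proteins carry paired zinc fingers and bring the CCR4-NOT deadenylase to mRNAs chosen with partners such as DND1 or Pumilio proteins, so that the bound mRNA is shortened and degraded. DAZL binds 3′ untranslated regions of germ cell mRNAs and is needed for germ cells to respond to sex-determining signals. LIN28 proteins bind precursors of the let-7 family of miRNAs and prevent their maturation.

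Values were FPKM (fragment counts divided by transcript length and by library size), tested as log2(FPKM + 0.5) with limma. Genes averaging under 0.5 FPKM were left out, and p-values were adjusted over the other 13988. Fold changes are Mutant minus WT on that scale, which understates changes of genes with low FPKM. The depth behind the FPKM values is unknown in absolute terms. The steps between low values gave depths of 0.78 to 1 relative to WT replicate 1. The library labelled WT replicate 3 stood apart: *Glis3* was 7.63, 6.89 and 2.91 FPKM in the WT libraries and 2.66 to 3.86 FPKM in the Mutant libraries, so that WT replicate 3 lay at the Mutant level (log2 fold change -0.69, standard error 0.28, limma adjusted p = 0.268). *Glis3* FPKM covers the whole gene, including parts that the deletion leaves in place. Values of the 6 members that were lower in Mutant are therefore given with and without this library.

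Of the 9 genes, 6 had a mean FPKM lower by 37.9% to 73.4% in Mutant testes (*Nanos2*, *Nanos3*, *Dnd1*, *Dazl*, *Lin28a* and *Lin28b*), and for the other 3 (*Nanos1*, *Pum2* and *Boll*) the mean was at most 13.3% lower. No member passed the adjusted threshold of 0.05 with all 7 libraries, as was the case for nearly all genes (0.00715% called, 1 of 13988). At an unadjusted p under 0.05, 5 of 9 were lower and 0 were higher, against 8.79% lower and 8.21% higher among all genes tested. The groups did not overlap for 2 of 9, both lower in Mutant (7.59% of all genes, with 7.31% higher). Without WT replicate 3, limma called 5 of 9 as lower in Mutant after adjustment and 0 as higher, against 3.99% and 1.16% of 14019 genes. This library was singled out by *Glis3* FPKM in these same data, after its values were seen. It also had the lowest summed FPKM of the 12 germ cell markers described below among the WT libraries (680, against 1400 and 970). Of these 12 markers, 7 were likewise called as lower without it. The 5 calls therefore depend on that choice and are not an independent test of the members.

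**Figure D1:**
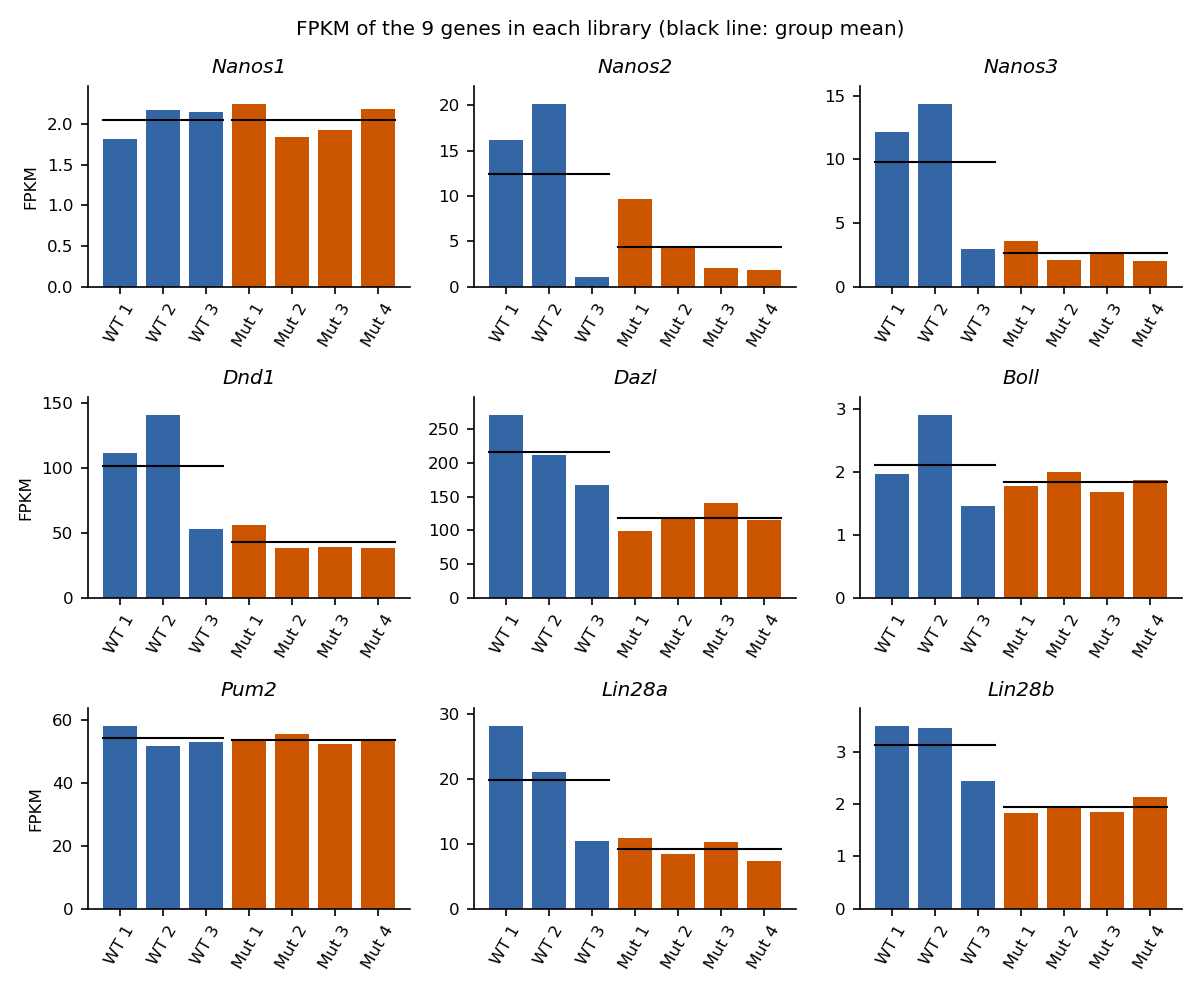
FPKM (vertical axis, starting at 0 and scaled per gene) of each of the 9 genes in the 3 WT (blue) and 4 Mutant (orange) libraries, with group means as black lines. WT replicate 3 sits near the Mutant libraries for *Nanos2*, *Nanos3*, *Dnd1* and *Lin28a* and above all of them for *Dazl* and *Lin28b*, while *Pum2* and *Nanos1* are level.

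The Nanos genes had 3 different patterns. *Nanos3* (gene ID 244551, chromosome 8, 84173733 to 84176552, minus strand of mm10), which primordial germ cells need to survive, was 12.1, 14.3 and 2.95 FPKM in the WT libraries, in order of replicate number, and 3.61, 2.07, 2.73 and 2.04 FPKM in the Mutant libraries. WT replicates 1 and 2 were high and WT replicate 3 lay inside the Mutant range. The means were 9.81 ± 6.04 (SD, n = 3) and 2.61 ± 0.737 FPKM (SD, n = 4), and limma gave -1.50 as log2 fold change (standard error 0.46, adjusted p = 0.196). Without WT replicate 3 it was -2.17 (adjusted p = 0.00561, with 0.00561 to 0.443 over all alternatives), the second largest decrease in size among the 9 genes.

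*Nanos2* (gene ID 378430, chromosome 7, 18987524 to 18988962, plus strand), the Nanos gene of the male fetal germline whose product represses meiosis, was the most variable member. Its FPKM was 16.2, 20.1 and 1.06 in WT and 9.63, 4.27, 2.02 and 1.81 in Mutant libraries, a span of 18.9-fold. The lowest of all 7 values was in WT replicate 3, below all 4 Mutant libraries, and the Mutant libraries themselves spanned 5.33-fold, more than for any other member. The log2 fold change was -0.99 (standard error 0.89, limma adjusted p = 0.598), and without WT replicate 3 it was -2.18 (adjusted p = 0.0632, with 0.0632 to 0.879 over all alternatives). It was -0.47 when WT replicate 1 and -0.32 when WT replicate 2 was left out. An antisense transcript is annotated over *Nanos2* and the reads were aligned without strand, so reads of the pair cannot be told apart.

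*Nanos1* (gene ID 332397, chromosome 19, 60755987 to 60759914, plus strand), a family member best known outside the germline, was low and level. Its FPKM lay between 1.81 and 2.17 in WT and between 1.84 and 2.24 in Mutant libraries, and the groups overlapped fully. The log2 fold change was 0.00 (standard error 0.11, limma adjusted p = 0.991), and 0.03 without WT replicate 3. *Pum2* (gene ID 80913, chromosome 12, 8674134 to 8752583, plus strand), a Pumilio protein expressed in most tissues, was just as level at a higher FPKM. It reached from 51.7 to 58.0 FPKM in WT and from 52.4 to 55.7 in Mutant libraries, and limma gave -0.01 as log2 fold change (standard error 0.06, adjusted p = 0.930). Over all 7 libraries the highest *Pum2* FPKM exceeded the lowest by 1.12-fold.

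*Dnd1* (gene ID 213236, chromosome 18, 36763671 to 36766214, minus strand), which binds mRNA together with NANOS2 and is needed for germ cell survival, was 111, 141 and 53.0 FPKM in WT and 56.1, 38.1, 39.4 and 38.4 FPKM in Mutant libraries. Mutant replicate 1 exceeded WT replicate 3, and these were the only overlapping libraries. The means were 102 ± 44.7 (SD, n = 3) and 43.0 ± 8.72 FPKM (SD, n = 4), and limma gave -1.14 as log2 fold change (standard error 0.30, adjusted p = 0.180). Without WT replicate 3 it was -1.55 (adjusted p = 0.0065, with 0.0065 to 0.403 over all alternatives). The 3′ end of *Dnd1* overlaps the annotated end of *Wdr55* on the other strand, and unstranded reads there cannot be assigned.

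*Dazl* (gene ID 13164, chromosome 17, 50279393 to 50293620, minus strand) was the most abundant member in both genotypes. It was 271, 211 and 167 FPKM in WT and 98.6, 116, 141 and 115 FPKM in Mutant libraries. All WT libraries, WT replicate 3 included, were above all Mutant libraries. The means were 217 ± 51.8 (SD, n = 3) and 118 ± 17.3 FPKM (SD, n = 4), a mean lower by 45.6%, and limma gave -0.86 as log2 fold change (standard error 0.17, adjusted p = 0.139, exact permutation test over 35 splits p = 0.0286, the smallest it can give). Without WT replicate 3 it was -1.03 (adjusted p = 0.0126, with 0.0126 to 0.353 over all alternatives).

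*Boll* (gene ID 75388, chromosome 1, 55300069 to 55363469, minus strand), the DAZ family gene of meiotic and later male germ cells, was near the bottom of the 9. It was 1.97, 2.90 and 1.46 FPKM in WT and 1.67 to 1.996 FPKM in Mutant libraries. The WT libraries bracketed the Mutant libraries, and limma gave -0.13 as log2 fold change (standard error 0.18, adjusted p = 0.742). Its sign rested on WT replicate 2: without it the log2 fold change was 0.08, and without WT replicate 3 it was -0.32 (adjusted p = 0.259, with 0.259 to 0.854 over all alternatives).

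**Figure D2:**
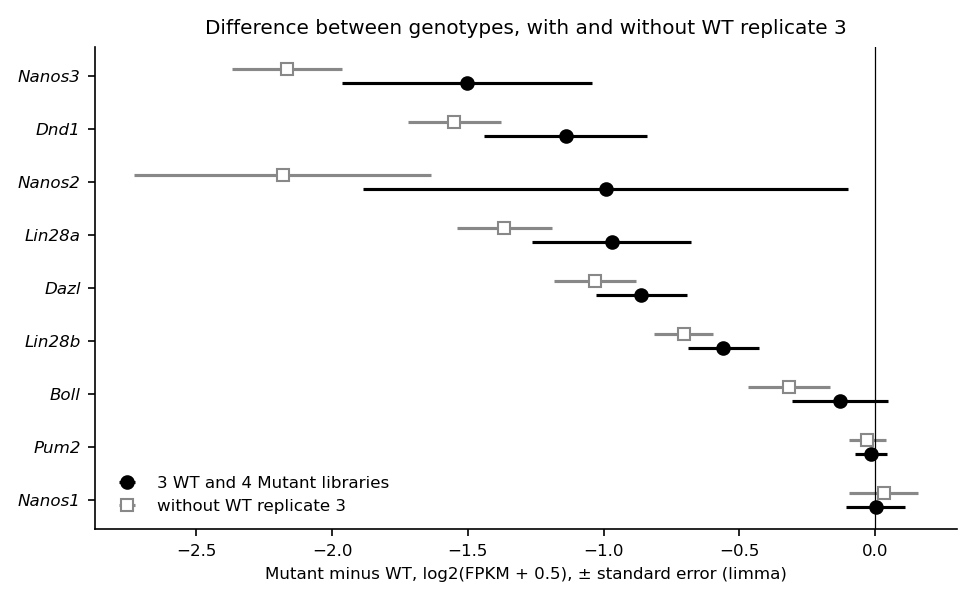
Mutant minus WT difference in log2(FPKM + 0.5) for the 9 genes (horizontal axis, 0 marked), with the limma standard error as bars, for all 7 libraries (filled circles) and without WT replicate 3 (open squares). *Nanos3* (-1.50 and -2.17) lies farthest left among the filled circles and *Nanos2* (-2.18) among the open squares; *Boll*, *Pum2* and *Nanos1* lie near 0.

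*Lin28a* and *Lin28b* encode related proteins with a cold shock domain and zinc knuckles that bind let-7 precursors. All 8 mature mouse let-7 5p miRNAs named with a single letter in the miRNA reference used share 1 seed (bases 2 to 8, in capitals), as shown for a pair of them:
mmu-let-7a-5p: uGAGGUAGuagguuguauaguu
mmu-let-7g-5p: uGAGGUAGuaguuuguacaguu

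The 11 let-7 precursor genes of the FPKM table are listed at 0 in every library, and mature miRNAs were not measured. The complement of the seed, CTACCTC, was searched for on the transcript strand in 3′ untranslated regions of GENCODE transcripts (longest coding transcript per gene). It occurs 2 times in that of *Lin28a* (2775 bases), 4 times in that of *Lin28b* (4445 bases) and 4 times in that of *Trim71* (5512 bases), a ubiquitin ligase gene classed as a let-7 target. Among 3′ untranslated regions within 10% of these lengths, 14.1% (of 1174), 22.6% (of 602) and 29.0% (of 386) hold it at least once. It was found in none of those of *Nanos1*, *Nanos2*, *Nanos3*, *Dazl*, *Boll* and *Pum2*. Of the other genes listed as let-7 targets below, *Mycn* had none and the rest had 1 to 4 matches each. A match is not evidence of binding, and it does not set these genes apart from the let-7 list below. The following matches are shown as examples, with the complement of the seed in capitals (mm10).
Lin28a, chr4:134005190-134005211, minus strand: gcacagcctgttgaaCTACCTC
Lin28a, chr4:134004552-134004573, minus strand: gagatcgccacaaacCTACCTC
Lin28b, chr10:45381023-45381044, minus strand: acccgggcgggaagtCTACCTC
Lin28b, chr10:45378649-45378670, minus strand: tatacttgttagtaaCTACCTC
Trim71, chr9:114512473-114512494, minus strand: aacattgcctaagtcCTACCTC
Trim71, chr9:114512377-114512398, minus strand: agtgataatttctatCTACCTC

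*Lin28a* (gene ID 83557, chromosome 4, 134003330 to 134018816, minus strand) was 28.1, 21.0 and 10.4 FPKM in WT and 10.8, 8.38, 10.3 and 7.39 FPKM in Mutant libraries. WT replicate 3 lay between Mutant replicates 1 and 3, so the groups overlapped by 1 library on each side. The log2 fold change was -0.97 (standard error 0.29, limma adjusted p = 0.193), and without WT replicate 3 it was -1.37 (adjusted p = 0.00883, with 0.00883 to 0.433 over all alternatives).

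*Lin28b* (gene ID 380669, chromosome 10, 45376619 to 45470201, minus strand) was lower than *Lin28a* in every library, at 3.49, 3.46 and 2.43 FPKM in WT and 1.83, 1.94, 1.86 and 2.15 FPKM in Mutant libraries. Every WT library was above every Mutant library, and the Mutant values spanned 1.18-fold. The means were 3.13 ± 0.602 (SD, n = 3) and 1.94 ± 0.144 FPKM (SD, n = 4), and limma gave -0.56 as log2 fold change (standard error 0.13, adjusted p = 0.168, exact permutation p = 0.0286). Without WT replicate 3 it was -0.70 (adjusted p = 0.015, with 0.015 to 0.376 over all alternatives).

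WT replicate 3 did not take the same place for all of the lower genes. On the log2 scale, with the Mutant mean set at 0% and the mean of WT replicates 1 and 2 at 100%, it stood at 50.2% for *Dazl* and 37.8% for *Lin28b*. It stood at 20.6% for *Dnd1*, 13.1% for *Lin28a* and 8.17% for *Nanos3*. For *Nanos2* it stood at -63.6%, beyond the Mutant mean. In linear FPKM the mean of WT replicates 1 and 2 exceeded WT replicate 3 by 17.1-fold for *Nanos2* and 4.49-fold for *Nanos3*, but by 1.44-fold for *Dazl* and 1.43-fold for *Lin28b*.

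FPKM is per length, so the levels of the members can be ranked. In WT testes the order of mean FPKM was *Dazl*, *Dnd1*, *Pum2*, *Lin28a*, *Nanos2*, *Nanos3*, *Lin28b*, *Boll* and *Nanos1*. The ranges of neighbors in this order were apart only between *Dazl* and *Dnd1* and between *Pum2* and *Lin28a*. In Mutant testes *Pum2* stood above *Dnd1*, and *Nanos1* above *Lin28b* and *Boll*. There the ranges of neighbors were apart only between *Dazl* and *Pum2* and between *Dnd1* and *Lin28a*, so the other places in the order are not separated beyond the spread.

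Germ cell genes were lower as a group in the Mutant libraries, and the members were therefore also set against them. Of 12 germ cell markers, none of them a member, all 12 had a negative log2 fold change, 9 had an unadjusted p under 0.05, and 5 did not overlap between the groups (median log2 fold change -0.74, against 0.01 for all genes). The 5 were *Ddx4* (-1.08), *Utf1* (-1.03), *Tfap2c* (-0.73), *Sall4* (-0.68) and *Taf4b* (-0.58). The summed FPKM of the 12 markers was 680 to 1400 in WT and 576 to 681 in Mutant libraries, and none was at 0 in every library. The defining marker *Ddx4*, a germ cell RNA helicase, was 102, 94.7 and 53.1 FPKM in WT and 33.6 to 42.2 FPKM in Mutant libraries. Among somatic lists, 7 of 8 fetal Leydig cell markers were higher at an unadjusted p under 0.05 and 4 did not overlap: *Insl3* (log2 fold change 0.66), *Cyp11a1* (0.55), *Fdx1* (0.43) and *Scarb1* (0.38). *Insl3* encodes a hormone of testis descent and *Cyp11a1* the enzyme that opens steroid synthesis. The summed FPKM of the 8 was 1802 to 2911 in WT and 2795 to 3394 in Mutant libraries. Of 8 Sertoli cell markers, 1 (*Inha*) was higher without overlap (sums of 509 to 676 and 663 to 787 FPKM). Their part in the values of the members was not tested.

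The mean log2(FPKM + 0.5) of the 12 markers was subtracted from that of each member in the same library. Besides the genes named above, the markers were *Pou5f1*, *Dppa3*, *Dppa5a*, *Prdm14*, *Sycp3*, *Hormad1* and *Mael* (log2 fold change -1.55). All 12 had negative log2 fold changes, so the subtraction raises every difference. Overlap after it does not show that a member followed germ cell content, which was not tested. On this relative scale *Dazl* was 3.09, 3.07 and 3.35 in WT and 2.81 to 3.30 in Mutant libraries. The groups overlapped, and Mutant differed from WT by -0.07 (exact permutation test, p = 0.686). For *Lin28a* the difference was -0.18 (exact p = 0.286) and for *Lin28b* 0.23 (exact p = 0.229). For *Dnd1* it was -0.35 (exact p = 0.2) and for *Nanos3* -0.72 (exact p = 0.143). *Nanos2* differed by -0.21 (exact p = 0.857), with a range of -3.39 to -0.29 in WT libraries. With all 7 libraries the 6 lower genes overlapped between genotypes on the scale relative to the mean of the 12 markers. Relative to *Ddx4* alone, *Lin28b* was higher in Mutant by 0.53 (exact permutation p = 0.0286). *Ddx4* itself was lower (log2 fold change -1.08), so a gene that fell less comes out higher here. The share of all genes that did was not counted. With WT replicate 3 left out, the relative difference was -1.12 for *Nanos3* and 0.34 for *Lin28b*, both without overlap (exact p = 0.0667, the smallest that 2 against 4 libraries can give). It was -1.13 for *Nanos2*, -0.50 for *Dnd1*, -0.32 for *Lin28a* and 0.02 for *Dazl*, with exact p from 0.133 to 0.867. Across all genes, the share without overlap in this setting was not counted. *Lin28a* was also without overlap (-0.16 and -0.23 in WT, -0.71 to -0.33 in Mutant libraries), whereas *Nanos2*, *Dnd1* and *Dazl* overlapped. The relative differences of these genes rested on other WT libraries too. Leaving out WT replicate 2 gave -0.37 for *Nanos3*, -0.11 for *Dnd1* and 0.42 for *Nanos2*, and leaving out WT replicate 1 gave -0.099 for *Lin28a*, 0.087 for *Lin28b* and 0.097 for *Nanos2*. With all 7 libraries, *Nanos1*, *Boll* and *Pum2* were higher without overlap on this scale by 0.79, 0.66 and 0.77 (exact p = 0.0286 each), as were 76.5% of all genes tested, since the subtracted markers were lower.

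**Figure D3:**
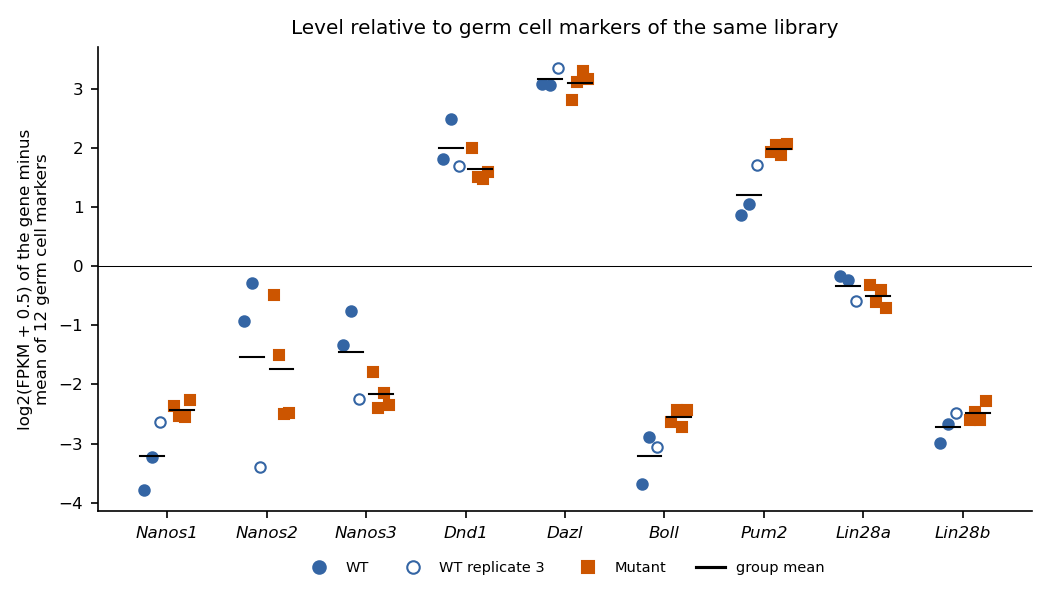
Level of each of the 9 genes relative to germ cell genes: log2(FPKM + 0.5) minus the mean of 12 germ cell markers in the same library (vertical axis), for WT (circles, replicate 3 open) and Mutant (squares), with group means as lines. Groups overlap for the 6 genes that were lower in FPKM and are apart for *Nanos1*, *Boll* and *Pum2*.

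Profiles over the 7 libraries were compared by the root mean square difference of log2(FPKM + 0.5) after each gene was centred on its own mean. All points share the same libraries and the same scaling, and the values are a description. The smallest difference between any 2 of the 6 lower members was 0.229, between *Dazl* and *Lin28b*, followed by 0.255 between *Dnd1* and *Lin28a*. *Nanos2* and *Nanos3* were 0.759 apart. By rank among all genes tested, *Lin28a* was number 48 in nearness to *Dnd1*, *Nanos3* was number 76 in nearness to *Nanos2*, and *Lin28b* was number 82 in nearness to *Dazl*. Among all genes tested, those nearest to *Lin28a* were *Uba1y* (0.1003), *Trim71* (0.131) and *Usp26* (0.146). A link of *Lin28a* and *Trim71* through let-7 was not tested. Nearest to *Dnd1* were *Prr19* (0.069), *Uchl1* (0.104) and *Tex14* (0.116), and to *Nanos3* *Kremen2* (0.105), *Khdc1a* (0.160) and *Map3k15* (0.175). Nearest to *Dazl* were *Ifitm1* (0.108), *Esrp1* (0.127) and *Smc1b* (0.130), and to *Lin28b* *Gemin5* (0.061), *Hsp90aa1* (0.069) and *Coprs* (0.093). The nearest genes of *Nanos2* were farther on this scale, which is not divided by the spread of each gene: *Xlr5b* (0.281), *Gm6880* (0.282) and *Tex101* (0.292). Those of the level members were *Txndc16*, *4930404N11Rik* and *Ahi1* for *Boll*, *Rpp30*, *Asf1b* and *Cops7b* for *Nanos1*, and *Senp6*, *Dock9* and *Coq4* for *Pum2*, with differences between 0.018 and 0.076.

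**Figure D4:**
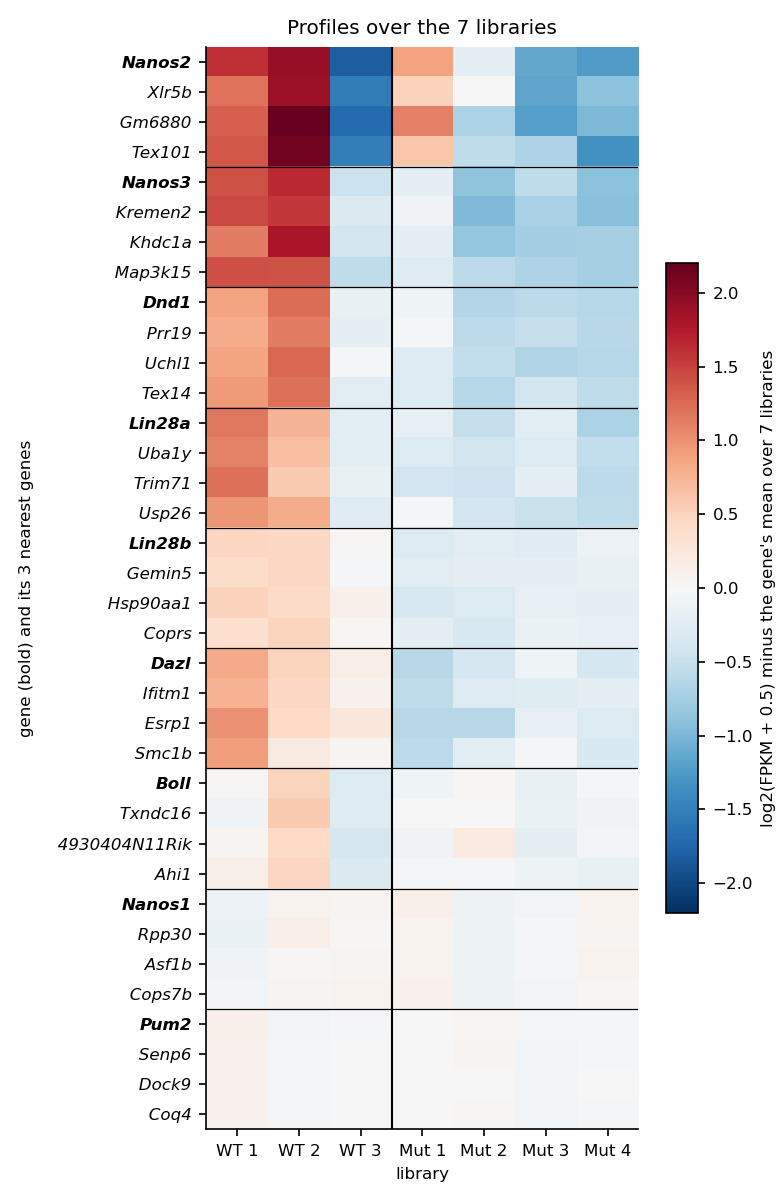
Profiles of the 9 genes (bold) and the 3 genes nearest to each over the 7 libraries (columns). Color gives log2(FPKM + 0.5) minus the mean of the gene over the 7 libraries. The *Nanos2* block has WT replicate 3 as its lowest column and Mutant replicate 1 above the mean, whereas in the *Dazl* block all WT columns lie above the mean.

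The sequence upstream of the transcription start was taken from RefSeq (GRCm38.p6) for 8 of the 9 genes, as 250 bases. The windows shown belong to members that were lower in Mutant, and stop where an annotated exon of the same gene begins; capitals mark CpG dinucleotides, the sites of DNA methylation, which was not measured here.
Nanos2, chr7:18987274-18987399, plus strand: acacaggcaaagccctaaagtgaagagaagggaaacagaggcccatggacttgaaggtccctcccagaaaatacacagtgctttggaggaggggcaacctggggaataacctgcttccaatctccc
Nanos3, chr8:84176553-84176802, minus strand: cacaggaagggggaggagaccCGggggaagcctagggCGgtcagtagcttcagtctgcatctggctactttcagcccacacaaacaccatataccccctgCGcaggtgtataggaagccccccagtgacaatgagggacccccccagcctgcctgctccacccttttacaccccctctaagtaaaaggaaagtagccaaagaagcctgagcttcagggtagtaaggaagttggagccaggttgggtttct
Dazl, chr17:50293637-50293870, minus strand: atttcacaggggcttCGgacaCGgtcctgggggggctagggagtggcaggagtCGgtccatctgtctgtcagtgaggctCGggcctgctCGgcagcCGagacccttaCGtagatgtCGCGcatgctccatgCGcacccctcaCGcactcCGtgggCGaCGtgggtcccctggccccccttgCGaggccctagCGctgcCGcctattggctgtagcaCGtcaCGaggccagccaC
Lin28a, chr4:134018842-134019066, minus strand: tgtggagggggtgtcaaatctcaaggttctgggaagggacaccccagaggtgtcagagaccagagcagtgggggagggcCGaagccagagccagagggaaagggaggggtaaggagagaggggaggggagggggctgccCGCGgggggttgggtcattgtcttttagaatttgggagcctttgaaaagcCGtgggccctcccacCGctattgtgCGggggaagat
Lin28b, chr10:45470202-45470451, minus strand: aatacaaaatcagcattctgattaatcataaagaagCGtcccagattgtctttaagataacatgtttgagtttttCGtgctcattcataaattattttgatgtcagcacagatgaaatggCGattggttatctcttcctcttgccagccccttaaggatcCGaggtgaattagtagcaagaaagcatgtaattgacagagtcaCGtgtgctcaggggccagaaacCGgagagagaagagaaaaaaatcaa

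These members did not share a CpG content: the 250-base window held 0 CpG for *Nanos2*, 3 for *Nanos3*, 6 for *Lin28b*, 7 for *Lin28a* and 20 for *Dazl*, against a median of 6 over 32841 windows. The core of the GLIS binding site, TGGGGGGT, was searched on both strands and occurs in none of the windows of the 8 genes (1.36% of all windows hold it). The E-box CACGTG, which reads the same on both strands, occurs 1 time in the window of *Lin28b* and 1 time in a window of *Boll* (6.02% of all windows). The E2F site TCCCGC occurs on either strand only in windows of *Pum2* among the 8 genes (16.9% of all windows). The absence of these letters says nothing of sequence outside the windows.

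The partners and targets of the members were described from fixed lists. Of 10 genes of the CCR4-NOT deadenylase, which NANOS2 recruits, 3 were lower at an unadjusted p under 0.05 and 0 higher, with a median log2 fold change of -0.06. *Cnot1*, its scaffold, was 34.6 to 41.3 FPKM in WT and 32.9 to 34.5 FPKM in Mutant libraries (log2 fold change -0.19, limma adjusted p = 0.234). *Rqcd1*, a further subunit, also did not overlap and was lower (-0.14, adjusted p = 0.259), whereas the deadenylase subunit *Cnot6* did not overlap and was higher (0.12, adjusted p = 0.308). Of 12 genes of P-bodies and mRNA decapping, 2 were lower at that threshold and 0 higher (median -0.10). *Eif4enif1* (-0.22, adjusted p = 0.215), an eIF4E-binding repressor of translation, and *Lsm1* (-0.14, adjusted p = 0.356), part of a ring that promotes decapping, did not overlap. These counts of few genes stand against 8.79% of all genes that were lower at the same threshold.

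Among 6 genes that process let-7, 1 had an unadjusted p under 0.05. This was *Drosha*, the nuclease that cuts primary miRNAs, at 13.4 to 19.5 FPKM in WT and 11.2 to 14.1 FPKM in Mutant libraries (log2 fold change -0.32, limma adjusted p = 0.274). *Zcchc11*, which LIN28A uses to add uridine to let-7 precursors, had a log2 fold change of 0.15 (adjusted p = 0.401). All 7 genes listed as let-7 targets had a negative log2 fold change (median -0.27, from -0.96 to -0.0026), and 1 had an unadjusted p under 0.05. With WT replicate 3 left out, the median was -0.14 and not all were negative: *Mycn*, named after its value was seen, had a log2 fold change of 0.13. With all 7 libraries, the gene under that threshold was *Trim71*, at 14.5, 9.16 and 5.29 FPKM in WT and 3.85 to 5.10 FPKM in Mutant libraries, which did not overlap (-0.96, standard error 0.27, adjusted p = 0.186). Its log2 fold change was -1.31 when WT replicate 3 was left out (limma adjusted p = 0.0108). The other 6 overlapped between the groups.

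Of 13 other germline RNA-binding proteins, 6 were lower at an unadjusted p under 0.05 and 6 did not overlap, with 0 higher (median log2 fold change -0.24). The 6 without overlap were *Ddx4* (-1.08, also among the germ cell markers), *Cpeb1* (-0.70), *Rbm44* (-0.65), *Elavl2* (-0.51), *Fxr1* (-0.24) and *Ythdc2* (-0.13), with limma adjusted p from 0.136 to 0.358. *Cpeb1*, which regulates poly-A tails in the cytoplasm, was 7.37 to 12.6 FPKM in WT and 4.59 to 5.92 FPKM in Mutant libraries. *Ythdc2*, a reader of methylated adenosine needed for meiosis, differed little, at 7.97 to 8.44 and 7.37 to 7.69 FPKM. Of the 13, limma called 3 as lower without WT replicate 3.

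Meiotic genes, which NANOS2 represses and DAZL promotes, had log2 fold changes of both signs. Of 10 tested, 2 were higher and 1 lower at an unadjusted p under 0.05, with a median log2 fold change of -0.35. With WT replicate 3 left out, the median was -0.64, and limma called 3 as lower and 1 as higher after adjustment. The 3 were *Sycp1* (-1.21), *Sycp2* (-1.58) and *Sycp3* (-1.58), genes of the synaptonemal complex that are named here after their values were seen, and the 1 was *Rec8* (0.59). *Sycp3* is also among the germ cell markers, as is *Hormad1*, the 1 gene lower at an unadjusted p under 0.05 with all libraries. *Stra8*, the gene that retinoic acid induces at meiotic entry, was 1.08, 0.601 and 0.0911 FPKM in WT and 1.40 to 2.06 FPKM in Mutant libraries (1.21, standard error 0.30, limma adjusted p = 0.170). *Rec8*, a meiotic cohesin, was 2.53 to 3.51 FPKM in WT and 4.71 to 5.58 FPKM in Mutant libraries (0.69, standard error 0.11, adjusted p = 0.112). *Prdm9*, which marks sites of recombination, was under the filter at 0.321 to 0.410 FPKM in all libraries, lower in Mutant without overlap.

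The second deposited table counts uniquely mapped reads per LINE, SINE and LTR locus, and gives a reading of the same genes through repeats that lie inside them. Totals were 3454317 to 4670830 repeat reads per library. Reads were summed over the loci inside each gene body on either strand and tested with edgeR for 12884 genes, each averaging at least 10 such reads. Loci inside 8 members had reads, and no locus with reads lay wholly inside *Nanos2*. No member passed the adjusted threshold (0.00776% of gene bodies did, 1 of 12884). The groups did not overlap for 2 of the 8, *Nanos3* and *Lin28b*, both lower (5.29% of all gene bodies). At an unadjusted p under 0.05, 4 of the 8 were lower (*Nanos3*, *Dazl*, *Lin28a* and *Lin28b*, against 5.93%). With WT replicate 3 left out, edgeR called 2 of the 8 as lower after adjustment (*Dazl* and *Lin28a*, against 0.961% of 12904). These calls too depend on leaving out a library that was chosen after its values were seen.

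*Dazl* holds 11 loci with reads, and they gave 1131, 685 and 543 reads in WT and 359, 369, 474 and 367 reads in Mutant libraries. As CPM (counts scaled to TMM-normalized library size) the WT libraries were at 272, 220 and 151 and the Mutant libraries at 114 to 158, so that WT replicate 3 fell below Mutant replicate 3. The log2 fold change was -0.75 (standard error 0.17, edgeR adjusted p = 0.144), and without WT replicate 3 it was -0.95 (adjusted p = 0.00333, with 0.00333 to 0.455 over all alternatives). The largest share came from a pair of Lx6 L1 fragments on exonic sequence. These loci gave 627, 395 and 290 reads in WT and 172 to 234 reads in Mutant libraries. The 9 intronic loci gave 504, 290 and 253 reads in WT and 156 to 240 in Mutant libraries. Relative to the total of repeat reads per library, these intronic loci overlapped between the groups, with WT replicate 3 below Mutant replicate 3. On that scale the exonic pair was lower in Mutant libraries without overlap.

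*Lin28a* holds 16 loci with reads, at 758, 517 and 270 reads in WT and 249, 188, 253 and 164 reads in Mutant libraries. Of these reads, 96.0% lay on exonic loci, and WT replicate 3 again sat at the Mutant level. The log2 fold change was -1.02 (standard error 0.24, edgeR adjusted p = 0.166), and without WT replicate 3 it was -1.33 (adjusted p = 0.00087, with 0.00087 to 0.53 over all alternatives). *Lin28b* holds 95 loci, at 167, 132 and 137 reads in WT and 99, 76, 82 and 118 reads in Mutant libraries. In CPM these were 38.2 to 42.5 and 25.6 to 37.2, which did not overlap (-0.40, standard error 0.14, edgeR adjusted p = 0.290). The 90 intronic loci did not overlap between the groups, and the 5 exonic loci did. For loci on the strand of the gene the log2 fold change was -0.97 (edgeR adjusted p = 0.185, with 0.185 to 0.555 over all alternatives).

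*Nanos3* differed between its FPKM and its repeat reads. Its 3 loci are all intronic and gave 45, 31 and 41 reads in WT and 16, 27, 17 and 21 reads in Mutant libraries. WT replicate 3, which had the FPKM of a Mutant library, had the highest of all 7 CPM values here, at 11.4 against 10.8 and 9.97 in the other WT libraries and 5.09 to 9.09 in Mutant libraries. The log2 fold change was -0.70 (standard error 0.24, edgeR adjusted p = 0.277), and these are few reads. The 1 locus in *Dnd1* gave 11 to 41 reads and overlapped between the groups (-0.51, standard error 0.30, adjusted p = 0.532), and the log2 fold change was -0.26 when WT replicate 1 was left out. *Pum2*, with 114 loci and 1779 to 2719 reads, was level again (-0.07, standard error 0.08, adjusted p = 0.788). *Nanos1* (0.03) and *Boll* (0.17) overlapped between the groups, with 51 to 70 and 19 to 27 reads.

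**Figure D5:**
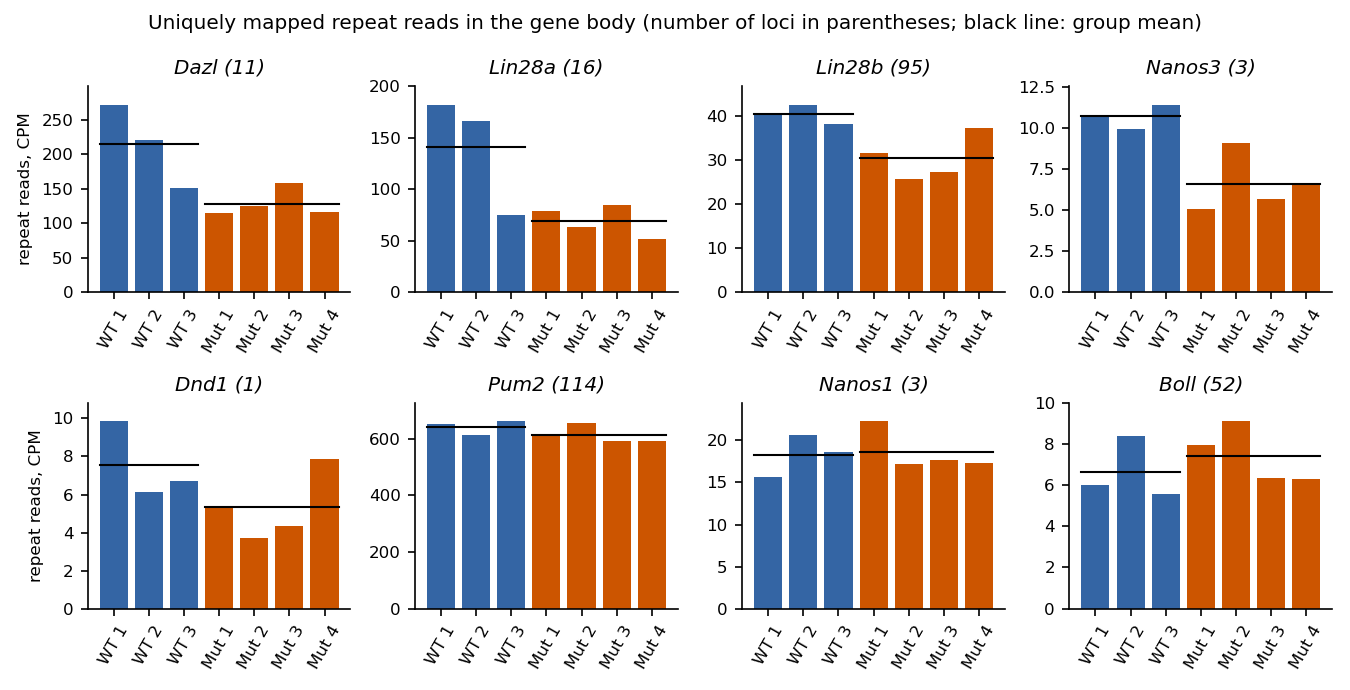
Uniquely mapped repeat reads inside the gene body, in CPM on TMM-normalized library sizes (vertical axis, starting at 0 and scaled per gene), for 8 of the 9 genes in 3 WT (blue) and 4 Mutant (orange) libraries, with group means as black lines. WT replicate 3 lies at the Mutant level for *Lin28a* and with the other WT libraries for *Nanos3* and *Lin28b*.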

How the data were processed

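The 7 libraries (whole E14.5 testes, total RNA after rRNA depletion) were grouped by their labels into 3 WT and 4 Mutant. The authors mapped quality-filtered reads to mm10 with TopHat 2.0.12, without strand, and deposited FPKM per RefSeq gene; the submitters' processing notes name Cuffnorm. The deposited counts, made by the authors with HTSeq, are uniquely mapped reads per RepeatMasker locus and are not normalized. The number of per-sample columns not used is 0.

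Genes averaging at least 0.5 FPKM were tested as log2(FPKM + 0.5) with limma 3.58.1 (trend, two-sided, Benjamini-Hochberg, threshold 0.05) in R 4.3.3. Repeat loci lying wholly inside a RefSeq gene body, as given with the FPKM values, were found with bedtools 2.31.1. GENCODE M21 exons served to mark loci as exonic or intronic. Counts were summed per gene (mean of at least 10 reads) and tested with edgeR 4.0.16 (quasi-likelihood, TMM). DESeq2 1.42.0 was an alternative. Single values were compared by two-sided exact permutation of the 35 arrangements of libraries (smallest p 0.0286). Cuffdiff, used by the authors, works on alignments and was not run. Sequences were handled in Python 3.11.15. On simulated data, limma recovered 97.5% of 200 genes changed by 1.5 (log2) among 13988 genes by FPKM, with 10 false calls. On simulated counts, edgeR recovered 76.5% of 200 gene bodies changed by 1 among 12884, with 18 false calls. The noise was drawn separately for each gene, so no simulated library stood apart across genes as WT replicate 3 did. These rates therefore do not carry over to the members.

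The 9 genes and all lists were chosen with earlier results of these data known. Named genes were the members, *Glis3*, *Stra8*, the 3 nearest genes by profile per member and, from each list, those without overlap or else the 2 with the smallest p. *Mycn*, *Sycp1*, *Sycp2* and *Sycp3* were added after their values were seen, and *Pou5f1* served as an alternative reference. The remaining germ cell markers were named to define the germ cell reference. Among marker lists not described above, interstitial *Acta2* and macrophage *Csf1r* were higher and mesonephric *Lhx1* and *Wnt9b* (the latter under the filter) lower without overlap; endothelial, blood, skeletal muscle and neural genes overlapped. Alternatives changed pseudocount, filter, normalization, variance model, loci, germ cell reference or replicate block, or left out 1 library.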

Additional observations from a re-analysis of the deposited data

Results flagged for a closer look

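In the 4 Mutant libraries, 26 sets of values were examined for 1 library far from the rest, and 2 exceeded Dixon's 95% critical value of 0.829; chance marks about 1 in 20. For *Dnd1*, the gap on the log2(FPKM + 0.5) scale divided by the range was 0.911, with Mutant replicate 1 at 56.1 FPKM and the others at 38.1 to 39.4. For *Nanos1*, the value for repeat reads in CPM was 0.905, with Mutant replicate 1 at 22.3 and the others at 17.2 to 17.7. Mutant replicate 1 also had the highest *Nanos2*, *Nanos3*, *Nanos1* and *Lin28a* FPKM of the 4 Mutant libraries, and the lowest *Dazl* and *Lin28b* FPKM.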

How the results depend on the processing

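Of the members' log2 fold changes under alternatives, 131 kept their direction and side of the threshold, 5 passed it and 7 turned sign. Calls appeared only without WT replicate 3, as given above for *Nanos3*, *Dnd1*, *Dazl*, *Lin28a* and *Lin28b*; leaving out 1 library at a time, the log2 fold changes spanned -2.17 to -1.11 for *Nanos3*, -1.55 to -0.85 for *Dnd1*, -1.03 to -0.69 for *Dazl*, -1.37 to -0.67 for *Lin28a* and -0.70 to -0.48 for *Lin28b*. Signs turned for values near 0: *Nanos1* was -0.0019 with array weights, -0.023 with the replicate block and -0.065 to 0.042 without 1 library, *Boll* -0.32 to 0.080 and *Pum2* -0.047 to 0.034. Genes called by limma numbered 4 without the filter, 3 with quantile normalization, 0 with the replicate block and 1 to 722 without 1 library, the highest without WT replicate 3; without WT replicate 2 there were 5 and without WT replicate 1 or Mutant replicate 3 there were 2 (1 with all libraries). In the block fit, where Mutant replicate 4 has no WT partner, 1726 genes had an unadjusted p under 0.05 in limma. At an unadjusted p under 0.05, 1569 genes were called without WT replicate 1 (2379 with all). Relative to *Ddx4* alone, *Nanos2* (0.092), *Dazl* (0.22) and *Lin28a* (0.11) turned sign and *Lin28b* was higher by 0.53 (exact p = 0.0286). *Ddx4* itself was lower in Mutant, which raises all of these values. Relative to *Pou5f1* alone, *Nanos1*, *Boll* and *Pum2* were higher by 0.76, 0.63 and 0.74 (exact p = 0.114 each). Without 1 library these relative values spanned 0.51 to 1.08 for *Nanos1*, 0.42 to 0.82 for *Boll*, 0.60 to 1.02 for *Pum2*, -1.13 to 0.42 for *Nanos2* and -0.14 to 0.024 for *Dazl*, where the exact test cannot go below 0.0667 without a WT and 0.1 without a Mutant library. For repeat reads, *Dazl* passed with DESeq2 (-0.75, adjusted p = 0.0037) and without the filter (-0.77, 0.0316), *Lin28a* without the filter (-1.04, 0.0351), and both without WT replicate 3; without 1 library they spanned -0.95 to -0.54 and -1.33 to -0.79, and *Nanos1* -0.074 to 0.12. Gene bodies called numbered 49 with DESeq2, 25 for loci on no exon, 3 for loci on the gene's strand, 53 without the filter, 0 with the replicate block and 0 to 149 without 1 library, with 149 without WT replicate 3 and 21 without WT replicate 2 (1 with all). Correlations of deviations between WT and Mutant libraries of the same replicate number were 0.20, -0.18 and 0.23. For libraries of unlike number they ran from -0.30 to 0.17, so whether the numbers pair the libraries is not settled. The block changed no other call. With a mean of at least 2 FPKM, *Boll* has no value. The cause of these changes was not tested.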
